A study of Mus musculus with 6 samples.

Results

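The genes described here encode the liver's conjugating enzymes: the glutathione S-transferases, the UDP-glucuronosyltransferases and the sulfotransferases. They were chosen by symbol, as every gene whose name begins with Gsta, Gstk, Gstm, Gsto, Gstp, Gstt, Mgst, Ugt1, Ugt2, Ugt3 or Sult. Of 69 such symbols in the RefSeq gene table, 57 had a probe with a gene name on the array, out of 20659 genes with one. They were 23 glutathione transferase genes (Gst and Mgst), 20 sulfotransferase genes (Sult) and 14 glucuronosyltransferase genes (Ugt).

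Liver RNA came from male ICR mice, an outbred stock, dosed into the stomach once daily. The DECB group received deproteinized extract of calf blood and the control group normal saline, each at 0.08 mL per 20 g of body weight for 35 days. Each group had 12 mice of 18 to 22 g, and the arrays are DECB 4, 5 and 6 and control 1, 2 and 3. The sample descriptions give 30 days for DECB and 1 day for controls, which conflicts with the 35 days. Both groups were also timed for tolerance of hypoxia in closed containers, and the labels do not give the order of that test and liver collection. The labels do not say that each array holds a different mouse, so p-values cover the spread between these samples alone, and that spread may be technical.

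Conjugation is the second phase of the handling of drugs, hormones, bile acids and bilirubin, in which an enzyme joins a polar group to the compound so that it can leave the cell in bile or blood. Glutathione transferases use the tripeptide glutathione, glucuronosyltransferases use UDP-glucuronate, and sulfotransferases use the sulfate donor PAPS. In mouse liver many of these genes are under the control of the receptors CAR and PXR, of the aryl hydrocarbon receptor or of the stress factor NRF2. Several sulfotransferases of the Sult2a and Sult3a groups are known as genes of female mouse liver.

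Each level below is the log2 of a probe's processed signal relative to the 75th percentile of its array, and each difference is DECB minus control on that scale. A gene is represented by its brightest probe, so levels of different genes are not compared. The filter on dim probes, well above background on 3 or more of the 6 arrays, was passed by 50 of the 57 genes: 22 of 23 Gst and Mgst, 14 of 20 Sult and 14 of 14 Ugt. Gstt4, Sult1c1, Sult2a1, Sult2b1, Sult3a2, Sult6b1 and Sult6b2 did not pass. Sult2a1 was well above background on controls 2 and 3 alone.

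The arrays differed in brightness by slide, taken as arrays with the same scan date and time. Slide 1 held DECB 6 and control 1, slide 2 held DECB 4 and controls 2 and 3, and slide 3 held DECB 5. Slide 1 was the dim one, with a 75th percentile 4.04 times the local background in DECB 6 and 3.75 times in control 1, against 25.0 to 30.6 times elsewhere. For 20 of 49 of the conjugation genes (40.8%), both slide 1 arrays lay above or below all other arrays, against 56.7% of all genes. Across genes, which are not independent replicates, Pearson's r was 0.992 between controls 2 and 3, 0.968 between DECB 6 and control 1, and 0.901 to 0.963 for other pairs. All 8 hepatocyte markers were measured, and no marker list had a called gene. Summed erythroid markers ranged from 16.2 to 41.9 times the 75th percentile in DECB and from 65.0 to 98.4 times in controls. Summed pancreas and gut markers ranged from 24.0 to 26.7 in DECB and from 35.3 to 41.0 in controls, with Pnlip not well above background. The part of either marker list in the results was not tested. In whole liver, fewer cells of a type and less RNA per cell cannot be told apart.

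None of the 50 genes was called at an adjusted p under 0.05 (limma, Benjamini-Hochberg over 14805 genes), against 0.466% of all genes, 0.209% higher and 0.257% lower. At an unadjusted p under 0.05, 7 were lower in DECB, against 5.79% of all genes, and 0 were higher, against 4.22%. The 7 were Sult2a2, Sult2a6, Sult1d1, Sult1c2, Sult1b1, Ugt1a6b and Mgst3. With slide as a block, limma called 3 lower (Sult1c2, Sult1d1 and Mgst3) and 0 higher, against 3.94% and 2.74% of all genes and 6.67% in either direction, so the share of called genes among these enzymes was near that of all genes. Without slide 1, limma called 0, against 0.311% of all genes lower and 0.216% higher. Over the whole array, 0 genes were called without the block when control 1, control 3, DECB 4 or DECB 5 was left out. This holds for every call named below that comes from the fit over all 6 arrays without the block. The slide-block fit and the fit without slide 1 were not repeated with single arrays left out. Differences were below 0 for 38 of the 50, against 52.5% of all genes, and their median was -0.38, against -0.027 for all genes. The 3 DECB arrays lay below the 3 control arrays for 10 of 49 genes (20.4%), against 9.4% of all genes, and above them for 1 of 49, Ugt2b37, against 7.24%. Over the 38 conjugation genes well above background on all 6 arrays, DECB arrays lay below the controls for 7, against 11.3% of all genes measured so. An exact permutation test (two-sided) of 3 arrays against 3 cannot go below p = 0.1, the value for these 11 genes.

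**Figure D1:**
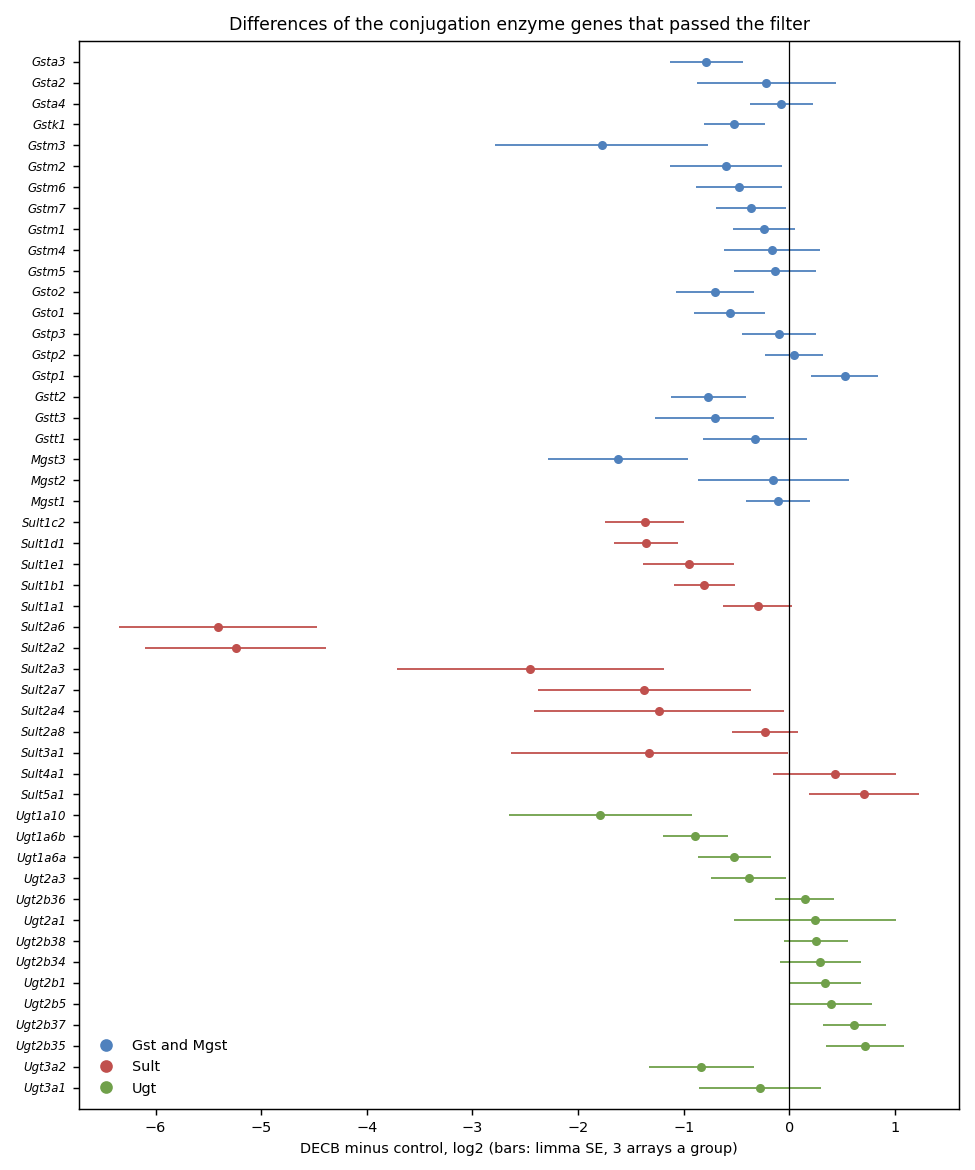
Difference of each of the 50 genes (DECB minus control, log2, x axis), with bars for the limma SE over 3 arrays a group and colours for the 3 families. The Sult points reach furthest to the left, to -5.41 for Sult2a6, most Gst and Mgst points lie between -1 and 0, and the 7 Ugt2b points lie to the right of 0.

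The sulfotransferases had the lowest median of the families, -1.28 over 14 genes, with 12 of 14 below 0. Sult2a2 and Sult2a6, which act on steroids and bile acids, were at or near background in DECB livers and well above it on all control arrays. Sult1d1, Sult1c2, Sult1b1 and Sult1e1, which act on phenols, catecholamines, thyroid hormone or oestrogen, also had lower levels in all 3 DECB arrays than in any control array. Groups did not overlap for 6 of the 14 (42.9%), all lower in DECB, against 9.4% of all genes. Of these 6, Sult2a6 passed the filter only through the controls. Sult2a2, well above background on 1 DECB array and 3 control arrays, would also not have passed without the controls. Of the 5 Sult genes well above background on all 6 arrays, 3 (Sult1b1, Sult1c2 and Sult1d1) had no overlap, against 11.3% of all genes measured so. None of the 14 passed the adjusted test in limma. The family median was -0.60 without control 3, -0.73 with normexp background removal and -0.80 over the Sult genes well above background on all 6 arrays.

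The Sult2a genes lie near one another on chromosome 7. Their RefSeq promoters (GRCm38.p6) were compared because Sult2a8 had a difference of -0.23 and the other Sult2a genes had differences of -5.41 to -1.23. The 250 bases before the annotated start are given 5′ to 3′ for 4 of them. Capitals mark GTTAAT or its reverse complement, an arm of the palindrome recognised by the liver factor hepatocyte nuclear factor 1.
Sult2a6: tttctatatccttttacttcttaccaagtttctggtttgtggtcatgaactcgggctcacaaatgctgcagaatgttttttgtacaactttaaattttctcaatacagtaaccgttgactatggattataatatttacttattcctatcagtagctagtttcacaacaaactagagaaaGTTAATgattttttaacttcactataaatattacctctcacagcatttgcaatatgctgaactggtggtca
Sult2a3: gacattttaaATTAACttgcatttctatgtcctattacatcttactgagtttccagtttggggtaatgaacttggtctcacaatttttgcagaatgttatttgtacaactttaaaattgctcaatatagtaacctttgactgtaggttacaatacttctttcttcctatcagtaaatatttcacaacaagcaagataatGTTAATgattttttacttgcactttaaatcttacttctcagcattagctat
Sult2a4: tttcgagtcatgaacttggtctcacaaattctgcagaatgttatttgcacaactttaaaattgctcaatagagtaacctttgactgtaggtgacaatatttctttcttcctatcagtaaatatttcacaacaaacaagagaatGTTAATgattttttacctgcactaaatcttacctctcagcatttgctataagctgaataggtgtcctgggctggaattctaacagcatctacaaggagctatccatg
Sult2a8: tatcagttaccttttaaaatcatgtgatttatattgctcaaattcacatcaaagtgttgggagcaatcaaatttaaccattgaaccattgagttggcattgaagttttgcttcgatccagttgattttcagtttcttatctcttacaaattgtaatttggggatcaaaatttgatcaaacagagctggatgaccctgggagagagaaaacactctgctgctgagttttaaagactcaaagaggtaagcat
These stretches are chr7:14254871-14255120, chr7:14123049-14123298, chr7:13989589-13989838 and chr7:14446588-14446837 in that order, all on the minus strand. Over the full 300 bases of each promoter entry, Sult2a3 was 77.33% identical to Sult2a6 and 76% identical to Sult2a4. Sult2a8 was 58.33% to 62.33% identical to the other Sult2a promoters in the table. The arm lay 71 bases before the start of Sult2a6, 107 before that of Sult2a4 and 51 and 240 before that of Sult2a3, and was not in the Sult2a8 window. Sult2a2 and Sult2a7 had no promoter entry, and Sult2a3 and Sult2a4 overlapped between groups. The arm was also in promoters of Sult1a1, Ugt2a3, Ugt1a6a and Ugt1a10, whose groups overlapped. Promoters of Sult1d1 and Gsta3, whose groups did not overlap, held it too. Whether the arm goes with the differences was not tested. On both strands the arm was in 14 of 69 promoters of the conjugation genes (20.29%) and in 7.099% of all 32851 promoters. It was searched for only after the data were seen, and related Sult2a and Ugt1a entries are counted singly, so the 14 are not independent. The arm lies within the full palindrome, GTTAAT and ATTAAC with any base between them, which was in 0 of 69 and in 3 promoters of the whole table. These are counts of letters, and binding was not measured.

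Sult2a2 had levels of -4.95, -4.01 and -4.54 in DECB 4, 5 and 6, against -0.30, -0.32 and 2.87 in controls 1, 2 and 3. Every DECB array was below every control array, and control 3 stood above the other controls. The difference was -5.24 (SE 0.86, adjusted p = 0.068), with the probe well above background on 1 of 3 DECB arrays and 3 of 3 control arrays. Its size depended on how background was removed, since normexp gave -2.98.

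Sult2a6 had levels of -6.26, -6.06 and -4.27 in DECB arrays, against -1.13, -1.15 and 1.93 in control arrays. It was well above background on 0 DECB arrays and all 3 control arrays, and passed the filter only through the controls. It was at least 12.8-fold lower in DECB, a bound that sets the control mean against, per DECB array, the higher of the probe's own signal and the lowest signal well above background (adjusted p = 0.074 in limma). That bound holds for this background removal with all arrays: it was 6.28-fold without control 3, again the highest array, and normexp gave a difference of -2.30, a 4.94-fold lower level. The bound also rests on 1 of the gene's 3 probes, as the others did not pass the filter. Of those, 1 was well above background on 2 control arrays and 0 DECB arrays, and the other on 0 arrays of either group.

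The other Sult2a genes overlapped between groups. Sult2a3, known in mice as a bile acid sulfotransferase, had levels of -6.04, -5.30 and -2.03 in DECB arrays, against -3.07, -3.12 and 0.18 in control arrays. Its difference of -2.45 (SE 1.26, adjusted p = 0.615) had opposite signs by slide, at 1.04 within slide 1 and -4.57 within slide 2. The probe was well above background on 1 DECB and 2 control arrays. Control 1 was below the lowest signal well above background on its array (-1.95), so the slide 1 value is not a measured reversal. Sult2a7 had levels of -3.09, -2.49 and -2.11 in DECB arrays, against -2.44, -2.49 and 1.36 in control arrays, so that control 3 alone stood apart. Its difference was -1.37 (SE 1.01). Sult2a4 differed by -1.23 (SE 1.18), with DECB 5 higher than controls 1 and 2. It was well above background on 1 DECB and 2 control arrays, and on neither slide 1 array.

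Sult2a8, a hepatocyte enzyme that sulfates bile acids, had levels of 3.88, 3.74 and 3.65 in DECB arrays and 3.66, 3.85 and 4.45 in control arrays. Its groups overlapped, with a difference of -0.23 (SE 0.31, adjusted p = 0.960). Sult3a1, known as a sulfotransferase of female mouse liver, had levels of -6.11, -1.43 and -2.37 in DECB arrays and -3.49, -2.20 and -0.25 in control arrays. Its difference was -1.32 (SE 1.31), and 1.12 within slide 1 against -4.89 within slide 2. Sult3a1 was well above background on 1 DECB and 2 control arrays. On neither slide 1 array was it so, and the slide 1 value compares signals at or near background. Control 3 was the highest of the 6 arrays for Sult2a2, Sult2a3, Sult2a4, Sult2a6, Sult2a7, Sult2a8 and Sult3a1. Near-identical sequences within Sult2a may let one probe read several of these transcripts, so values of single Sult2a genes are uncertain.

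The 5 Sult1 genes that passed the filter were well above background on all arrays, apart from Sult1e1. Sult1d1, which sulfates catecholamines and related amines in mice, had levels of 1.16, 1.79 and 1.90 in DECB arrays, against 3.11, 2.86 and 2.96 in control arrays. The gap between the groups exceeded the spread within either, and the difference was -1.36 (SE 0.31, adjusted p = 0.141 and 0.030 in the slide-block fit). Its other kept probe gave -1.04 (SE 1.36), and there the groups overlapped, with control 1 at -0.58 below DECB 4 at 1.74. The promoter of Sult1d1 on chr5:87569007-87569256, minus strand, is shown as that of a gene called lower in the slide fit, with the same arm in capitals.
Sult1d1: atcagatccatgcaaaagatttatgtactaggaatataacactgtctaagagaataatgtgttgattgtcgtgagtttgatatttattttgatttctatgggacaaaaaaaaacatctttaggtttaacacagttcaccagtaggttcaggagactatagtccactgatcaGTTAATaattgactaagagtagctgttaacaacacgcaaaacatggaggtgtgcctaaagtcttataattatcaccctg
The arm in it lay 79 bases before the annotated start.

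Sult1c2 had levels of -2.06, -1.20 and -1.06 in DECB arrays, against 0.31, -0.14 and -0.39 in control arrays. No DECB array reached the controls, and the difference was -1.37 (SE 0.37, adjusted p = 0.223 and 0.028 in the slide-block fit). Sult1b1, which sulfates thyroid hormone and simple phenols, had levels of 0.15, -0.088 and 0.47 in DECB arrays, against 1.08, 0.74 and 1.13 in control arrays. Its difference was -0.80 (SE 0.29, adjusted p = 0.408). Sult1e1, the oestrogen sulfotransferase, had levels of -3.54, -2.37 and -2.09 in DECB arrays, against -1.39, -1.89 and -1.85 in control arrays. It was dim, well above background on 2 of 3 DECB arrays, and differed by -0.95 (SE 0.43, adjusted p = 0.540).

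Sult1a1, the main phenol sulfotransferase, overlapped between groups at 5.32, 5.54 and 6.02 in DECB arrays and 6.19, 5.56 and 6.02 in control arrays, a difference of -0.30 (SE 0.33). The median of the 5 Sult1 genes was -0.95. Sult4a1 and Sult5a1 had the differences above 0 in this family, and Sult4a1 turned to -0.19 without control 1. Sult5a1 had -0.31, 0.033 and -0.60 in DECB arrays and -2.16, -0.57 and -0.27 in control arrays, where control 1 was low and was the array on which it was not well above background. Its difference was 0.71 (SE 0.52).

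**Figure D2:**
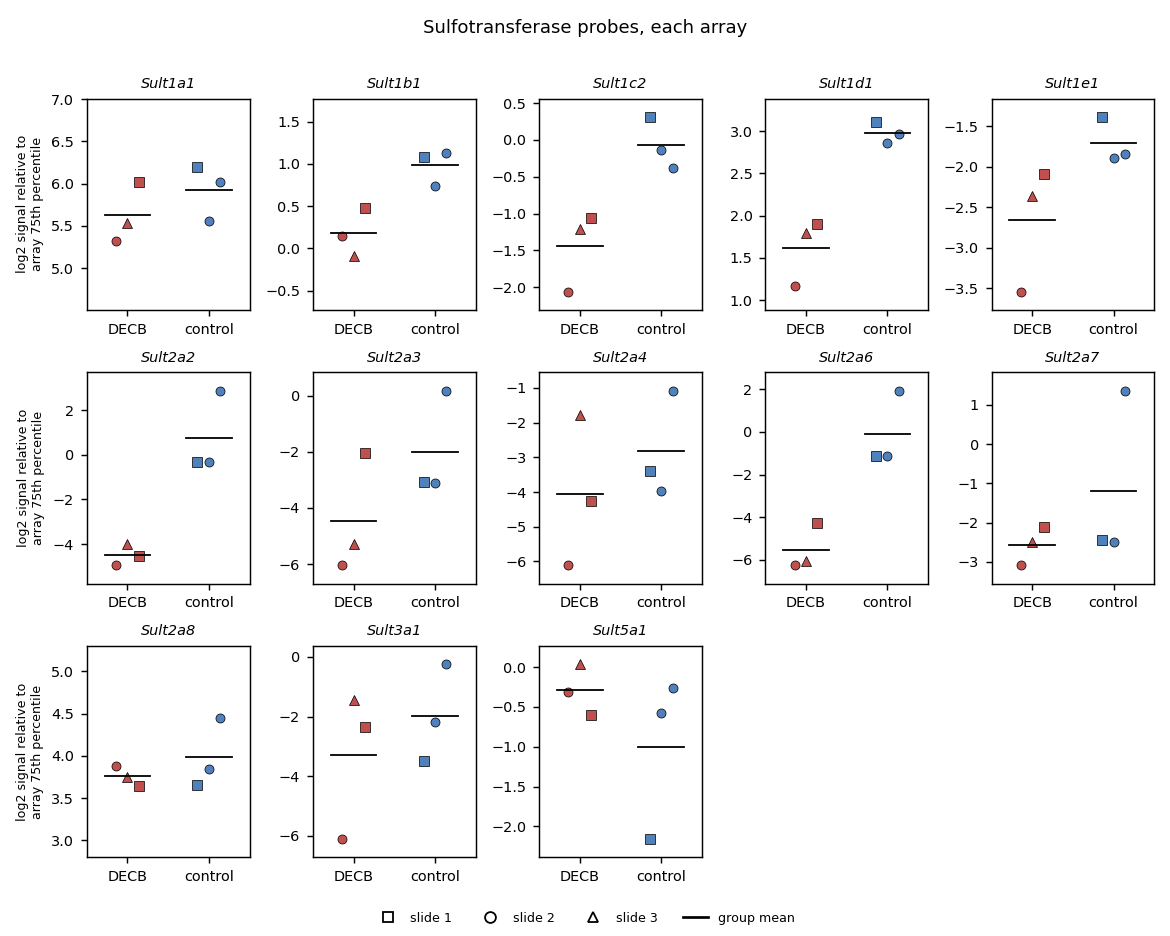
Levels of the sulfotransferase genes that passed the filter, other than Sult4a1, on each array (y axis, log2 signal against the 75th percentile of the array, scaled per panel), DECB left and control right, with symbols for slides and a line for the group mean. DECB points lie below all control points for Sult1b1, Sult1c2, Sult1d1, Sult1e1, Sult2a2 and Sult2a6, and control 3, the right-most control point, is the highest point for the Sult2a genes and Sult3a1.

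The glucuronosyltransferases divided by subfamily. All 7 Ugt2b genes, whose enzymes glucuronidate steroids, bile acids and drugs, had differences above 0, against 47.5% of all genes, with a median of 0.34. The 3 Ugt1a and 2 Ugt3a genes had differences below 0. The median over the 14 Ugt genes was 0.19, and none passed the adjusted test in limma. Whether the Ugt2b and Ugt1a genes differ from each other in their response was not tested.

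Ugt2b37 was the 1 conjugation gene whose DECB arrays all lay above the controls. Its levels were 4.50, 4.12 and 4.70 in DECB arrays, against 4.08, 3.67 and 3.72 in control arrays, a difference of 0.62 (SE 0.29, adjusted p = 0.574). DECB 5 and control 1 nearly met. Ugt2b35 had levels of 2.37, 2.11 and 3.10 in DECB arrays, against 2.22, 1.51 and 1.70 in control arrays. The groups overlapped, and the difference was 0.72 (SE 0.37, adjusted p = 0.620), with a second probe at 0.71 (SE 1.23), also with overlap.

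The other Ugt2b differences were smaller: 0.39 for Ugt2b5, 0.34 for Ugt2b1, 0.29 for Ugt2b34, 0.25 for Ugt2b38 and 0.14 for Ugt2b36, with SEs of 0.28 to 0.39. Ugt2b5 had levels of 5.44, 5.08 and 5.97 in DECB arrays and 5.73, 4.74 and 4.84 in control arrays, with both slide 1 arrays above the rest. Ugt2b34 turned to -0.0061 without DECB 6 and Ugt2b36 to -0.022 without DECB 4. The Ugt2b genes are related copies, and their probes may not tell all of the transcripts apart. The median of the 7 was 0.41 within slide 1 and 0.56 within slide 2.

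The most alike pair of Ugt2b promoters is that of Ugt2b37 and Ugt2b38, both on chromosome 5, whose 300-base promoter entries were 91.33% identical. Capitals mark the bases that differ within the stretch shared by both.
Ugt2b37: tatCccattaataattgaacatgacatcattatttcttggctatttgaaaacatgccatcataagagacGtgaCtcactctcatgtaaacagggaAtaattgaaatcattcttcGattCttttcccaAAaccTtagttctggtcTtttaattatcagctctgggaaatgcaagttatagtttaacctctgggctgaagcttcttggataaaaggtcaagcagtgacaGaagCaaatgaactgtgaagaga
Ugt2b38: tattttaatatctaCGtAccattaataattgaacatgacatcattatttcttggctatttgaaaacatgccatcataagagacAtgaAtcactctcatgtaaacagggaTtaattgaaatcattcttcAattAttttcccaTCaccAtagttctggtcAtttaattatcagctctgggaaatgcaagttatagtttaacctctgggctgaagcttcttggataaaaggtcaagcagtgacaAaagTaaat
The first is chr5:87254789-87255038 and the second chr5:87424204-87424453, both on the minus strand of GRCm38.p6. Ugt2b38 was 87% and Ugt2b37 82.67% identical to Ugt2b5, while Ugt2b1, Ugt2b34, Ugt2b35 and Ugt2b36 were under 70% identical to every other Ugt2b promoter. Ugt2b37 had no overlap between groups, while Ugt2b38 had levels of 6.05, 5.35 and 5.62 in DECB arrays and 5.22, 5.49 and 5.57 in control arrays, which overlapped. The difference between the 2 genes was not tested.

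Ugt1a transcripts have their own first exons and share their last exons, so a probe in the shared part reads all of them. Ugt1a6b, which glucuronidates planar phenols, had levels of 7.51, 7.02 and 7.83 in DECB arrays, against 8.53, 8.25 and 8.25 in control arrays. All DECB arrays were lower, with a difference of -0.89 (SE 0.31, adjusted p = 0.385). A second, far dimmer probe of Ugt1a6b had levels of -2.10, -2.14 and -1.18 in DECB arrays and -2.20, -2.92 and -2.12 in control arrays. It gave 0.60, the opposite sign. Whether either probe reads Ugt1a6b alone was not tested. Ugt1a10 had levels of 1.38, -1.90 and -1.73 in DECB arrays, against 1.64, 0.68 and 0.81 in control arrays. DECB 4 lay among the controls and the other DECB arrays well below them, for a difference of -1.79 (SE 0.87, adjusted p = 0.586) that was -3.37 within slide 1 and 0.64 within slide 2. Its other probe gave -0.81. Ugt1a6a differed by -0.52 (SE 0.35).

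Outside these, Ugt2a3 differed by -0.38 (SE 0.35) with overlapping groups. Ugt3a2, which uses sugars other than glucuronate, had levels of 0.63, 0.42 and 0.0082 in DECB arrays and 0.59, 0.70 and 2.27 in control arrays. Its difference of -0.83 (SE 0.50, adjusted p = 0.702) rested on control 3, and was -0.29 without that array. Ugt2a1 had no usable spot on control 2 and was fitted over the other 5 arrays.

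**Figure D3:**
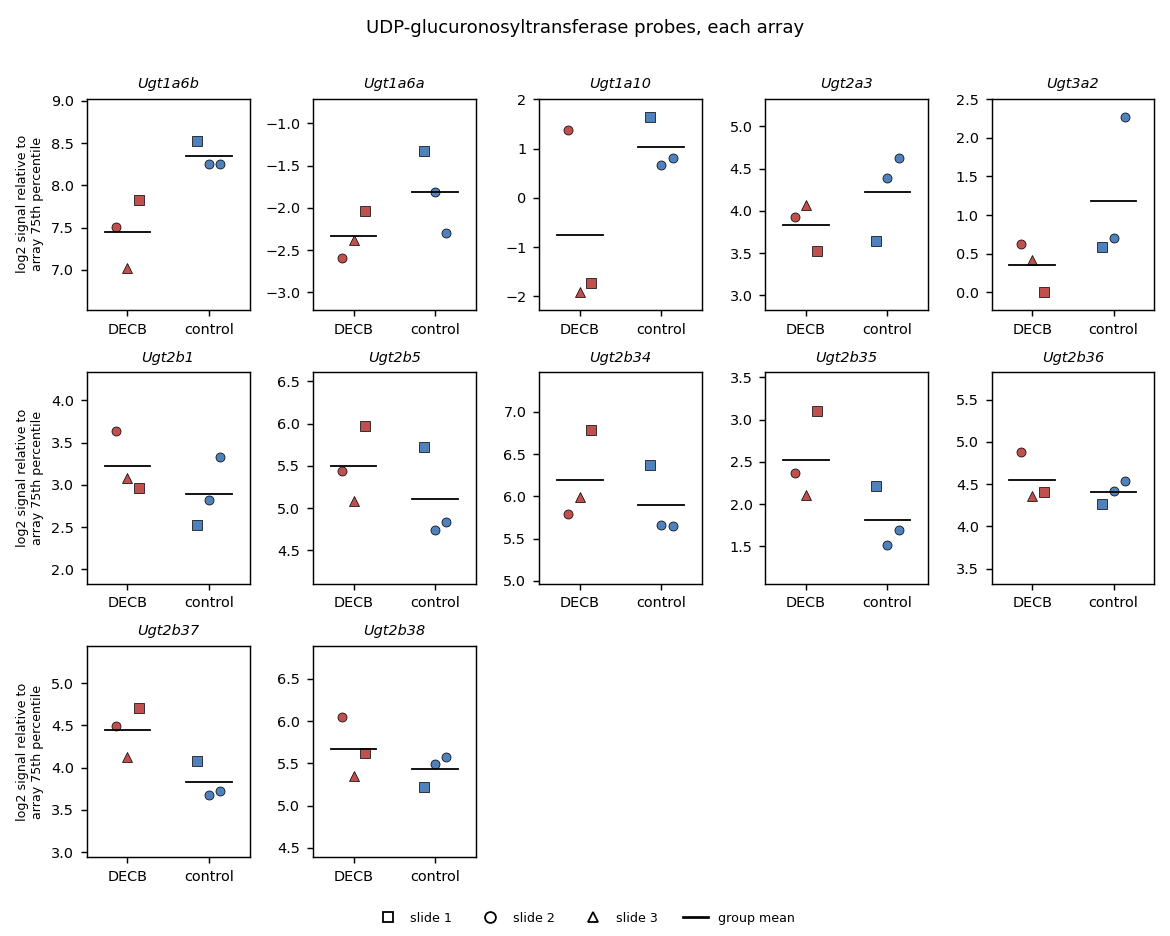
Levels of 12 glucuronosyltransferase genes on each array (y axis, log2 signal against the 75th percentile of the array, scaled per panel), DECB left and control right, with symbols for slides and a line for the group mean. Ugt1a6b is lower on every DECB array than on any control array, Ugt2b37 is higher on every DECB array, and the other panels overlap.

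The glutathione transferases had mostly small differences below 0. Of 22 Gst and Mgst genes, 20 had a difference below 0, against 52.5% of all genes, with a median of -0.35, and none passed the adjusted test in limma. Groups did not overlap for 3 of 22, all lower in DECB (13.6%, against 9.4% of all genes). Both slide 1 arrays lay apart from all others for 12 of 22 genes (54.5%), close to the share of all genes.

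Mgst3, a membrane-bound transferase and peroxidase, had levels of -0.13, -0.54 and 1.26 in DECB arrays, against 2.96, 1.60 and 0.89 in control arrays. DECB 6 lay above control 3, so the groups overlapped, and the difference was -1.62 (SE 0.66, adjusted p = 0.473). DECB 6 against control 1 on slide 1 gave -1.71, and DECB 4 against controls 2 and 3 on slide 2 gave -1.38. These are too few arrays to show a spread within a slide. With slide as a block the Mgst3 difference was -1.52 (adjusted p = 0.046). Its other kept probe gave -1.72. Mgst1, the abundant microsomal transferase of hepatocytes, differed by -0.11 (SE 0.30), with a second probe at 0.067, the opposite sign.

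Gsta3, an alpha-class enzyme that in mice detoxifies the epoxide of aflatoxin, had levels of 6.48, 6.33 and 7.27 in DECB arrays, against 7.76, 7.33 and 7.35 in control arrays. All DECB arrays were lower, DECB 6 by little, and the difference was -0.79 (SE 0.35, adjusted p = 0.524), with a second probe at -0.74. Its promoter on chr1:21240335-21240584, plus strand, is shown because Gsta3 is a known NRF2 target. Capitals mark the core of the antioxidant response element, TGAC and GC with any 3 bases between them.
Gsta3: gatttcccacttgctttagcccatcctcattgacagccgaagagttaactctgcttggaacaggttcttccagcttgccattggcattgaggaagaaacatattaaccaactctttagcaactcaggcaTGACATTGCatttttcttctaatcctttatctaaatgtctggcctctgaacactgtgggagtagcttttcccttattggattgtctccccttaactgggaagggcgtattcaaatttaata
The core lay 121 bases before the annotated start of Gsta3. On both strands it was in 4 of 69 promoters of the conjugation genes (5.797%), those of Gsta3, Gstm5, Gstm7 and Mgst1, and in 12.39% of all promoters. These 4 genes had differences of -0.79, -0.14, -0.37 and -0.11.

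In the theta class, Gstt2 had levels of 1.56, 1.48 and 2.30 in DECB arrays, against 2.98, 2.36 and 2.30 in control arrays. The groups met at DECB 6 and control 3, and the difference was -0.77 (SE 0.36, adjusted p = 0.549). Gstt3 differed by -0.71 (SE 0.56) and Gstt1 by -0.32 (SE 0.49), both with slide 1 arrays above all others. Gstk1, the kappa-class enzyme of mitochondria and peroxisomes, had levels of 4.01, 4.37 and 4.68 in DECB arrays, against 4.98, 4.85 and 4.80 in control arrays, a difference of -0.52 (SE 0.29, adjusted p = 0.666) with no overlap. The omega-class Gsto1 differed by -0.57 (SE 0.34). Gsto2 differed by -0.70 (SE 0.37), well above background on 1 DECB and 2 control arrays.

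All 7 mu-class genes had differences below 0, from -1.78 to -0.14, of which Gstm4 turned to 0.097 in the slide-block fit and Gstm5 to 0.18 without DECB 6. Gstm3 was the most variable, with levels of 5.36, 3.29 and 1.22 in DECB arrays, against 4.07, 5.69 and 5.44 in control arrays. The 3 DECB arrays differed from one another by more than the groups did, and the difference was -1.78 (SE 1.00, adjusted p = 0.671), -2.85 within slide 1 and -0.21 within slide 2. Its second probe gave -0.31. Gstm1, the main mu-class enzyme of mouse liver, had levels of 7.47, 6.99 and 7.05 in DECB arrays and 7.14, 7.69 and 7.40 in control arrays, which overlapped, with a difference of -0.24 (SE 0.30). Gstm2, Gstm6 and Gstm7 differed by -0.60, -0.48 and -0.37.

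The pi class had the 2 differences above 0. Gstp1, the abundant pi-class enzyme of mouse liver, had levels of 7.53, 7.67 and 7.02 in DECB arrays, against 6.57, 7.16 and 6.93 in control arrays. DECB 6 lay within the range of the controls, and the difference was 0.52 (SE 0.32, adjusted p = 0.709), with a second probe at 0.89. Gstp2 differed by 0.039 (SE 0.28), with a second probe at 0.53. The 300-base promoter entries of these 2 genes were 82% identical, and their probes may not tell the transcripts apart. Of the 17 conjugation genes with several kept probes, the probes of 14 lay within 0.5 of each other, and those of Gstm4, Mgst1 and Ugt1a6b had opposite signs.

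**Figure D4:**
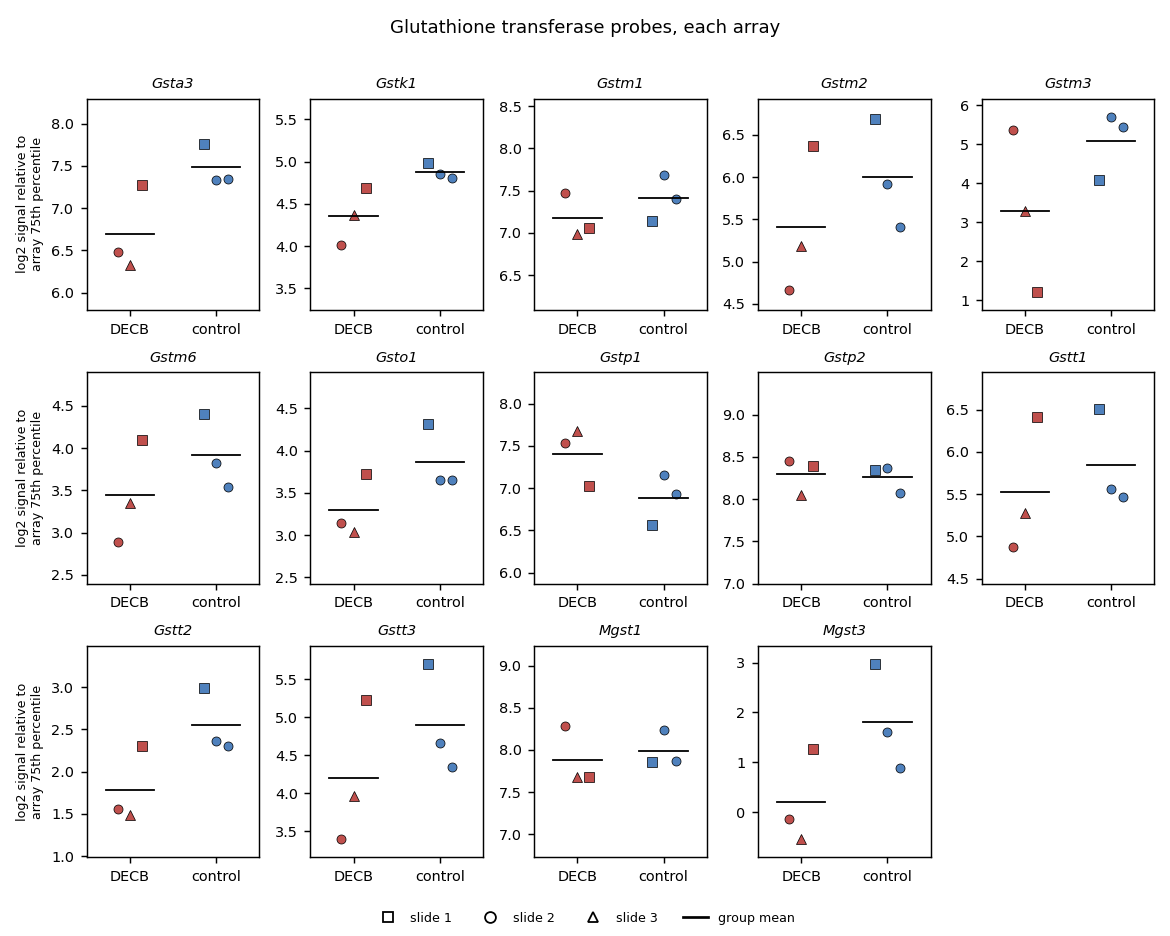
Levels of 14 glutathione transferase genes on each array (y axis, log2 signal against the 75th percentile of the array, scaled per panel), DECB left and control right, with symbols for slides and a line for the group mean. Squares, the slide 1 arrays, are the highest point of their group for Gsta3, Gstk1, Gstm2, Gstm6, Gsto1, Gstt1, Gstt2, Gstt3 and Mgst3, and DECB points lie below all control points for Gsta3, Gstk1 and Gstt2.

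PAPS, the sulfate donor, is made by Papss1 and Papss2, whose differences had opposite signs. Papss1 had levels of 2.42, 2.20 and 3.18 in DECB arrays, against 0.65, -0.39 and -0.13 in control arrays. All DECB arrays were higher, with a difference of 2.56 (SE 0.41, adjusted p = 0.065, 0.017 with slide as a block and 0.047 without slide 1). Papss2, the main form in liver, had levels of 3.43, 3.35 and 4.78 in DECB arrays, against 5.87, 4.73 and 4.77 in control arrays. DECB 6 lay among the controls, and the difference was -1.27 (SE 0.51, adjusted p = 0.466 and 0.031 in the slide-block fit). Of the 8 tested genes of PAPS supply, sulfate transport and sulfatases, 0 were called in the fit without the block, and their median was -0.16.

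The list for UDP-glucuronate supply and removal held Slc35b1, a nucleotide carrier of the endoplasmic reticulum membrane. Slc35b1 had a difference of 1.86 (SE 0.48, adjusted p = 0.197 and 0.019 in the slide-block fit), with all DECB arrays higher. Whether it carries UDP-glucuronate was not tested. Ugp2, which makes UDP-glucose, differed by -0.56 (SE 0.27), with all DECB arrays lower. Ugdh, which turns UDP-glucose into UDP-glucuronate and is named here for that role after its value was seen, differed by 0.69 (SE 0.45). None of the 7 genes of this list was called without the block.

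Among 12 tested genes of glutathione synthesis and breakdown, 0 were called, 3 had no overlap and were lower in DECB, against 9.4% of all genes, and 1 had no overlap and was higher, against 7.24%. The higher one was Gss, which joins glycine in the last step of glutathione synthesis and is named here after its value was seen, with a difference of 0.73 (SE 0.31, adjusted p = 0.487). Chac1, which breaks down glutathione, had levels of -0.50, -0.74 and -0.28 in DECB arrays, against 2.28, 1.42 and 1.08 in control arrays, a difference of -2.10 (SE 0.38, adjusted p = 0.083). Cth, which makes cysteine for glutathione, differed by -0.87 (SE 0.25, adjusted p = 0.264) with no overlap. Of 12 other glutathione-using or related genes, 1 was called, higher in DECB, against 0.209% of all genes. The groups did not overlap for 2, both higher in DECB, against 7.24% of all genes. The called gene, Clic5, a chloride channel protein with a glutathione transferase fold, rose by 2.91 (SE 0.40, adjusted p = 0.044). It was well above background on 1 control array, and normexp gave 1.16. Of 16 other conjugating enzymes, 1 was called, lower in DECB, against 0.257% of all genes. The groups did not overlap for 4 that were lower, against 9.4% of all genes, and for 1 that was higher, against 7.24%. The called gene, Gm4952, a glycine acyltransferase-like gene, fell by 3.12 (log2, SE 0.40, adjusted p = 0.038).

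Of 16 xenobiotic receptors and regulators, 0 were called, against 0.466% of all genes. DECB arrays lay below all controls for 3 of them, against 9.4% of all genes, and above for 0. Por, the electron donor of cytochrome P450 enzymes, had levels of 5.37, 5.99 and 5.71 in DECB arrays, against 7.28, 7.71 and 7.44 in control arrays, a difference of -1.78 (SE 0.30, adjusted p = 0.068). Ppara, a receptor for fatty acids, differed by -1.66 (SE 0.28, adjusted p = 0.068). Both had no overlap. Among genes known as targets of CAR and PXR outside the 3 families, 1 of 18 was called lower (Gadd45b) and 0 higher. Over all genes, 0.257% were called lower. DECB arrays lay below all controls for 11 of 18, against 9.4% of all genes, and the median was -1.0. The lists share genes: among the 11, Por is also a listed regulator and Abcc2 a listed export pump. Several others of the 11 are also in the list of genes higher in females, so these lists are not separate evidence. The median was -0.11 for 18 NRF2 targets and -0.18 for 5 targets of the aryl hydrocarbon receptor, none of them called. Among the NRF2 targets, groups did not overlap for 3 that were lower in DECB and 2 that were higher, against 9.4% and 7.24% of all genes. Among the aryl hydrocarbon receptor targets, 1 was lower without overlap and 0 were higher.

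Of 14 export pumps and uptake carriers of conjugates, 0 were called, against 0.257% of all genes lower, and 8 had no overlap, lower in DECB, against 9.4% of all genes. Their median was -0.67. Abcc2, the pump that carries conjugates into bile, had levels of 0.93, 1.11 and 1.39 in DECB arrays, against 2.51, 2.23 and 1.99 in control arrays. Its difference was -1.10 (SE 0.29, adjusted p = 0.206 and 0.033 in the slide-block fit). Abcb4, the phospholipid pump of the bile canaliculus, differed by -1.21 (SE 0.32, adjusted p = 0.209). Abcc4, which exports conjugates into blood, was well above background on 0 DECB and 3 control arrays and at least 3.16-fold lower in DECB (adjusted p = 0.131). It passed the filter through the controls alone, and normexp gave -0.82, a 1.76-fold lower level.

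**Figure D5:**
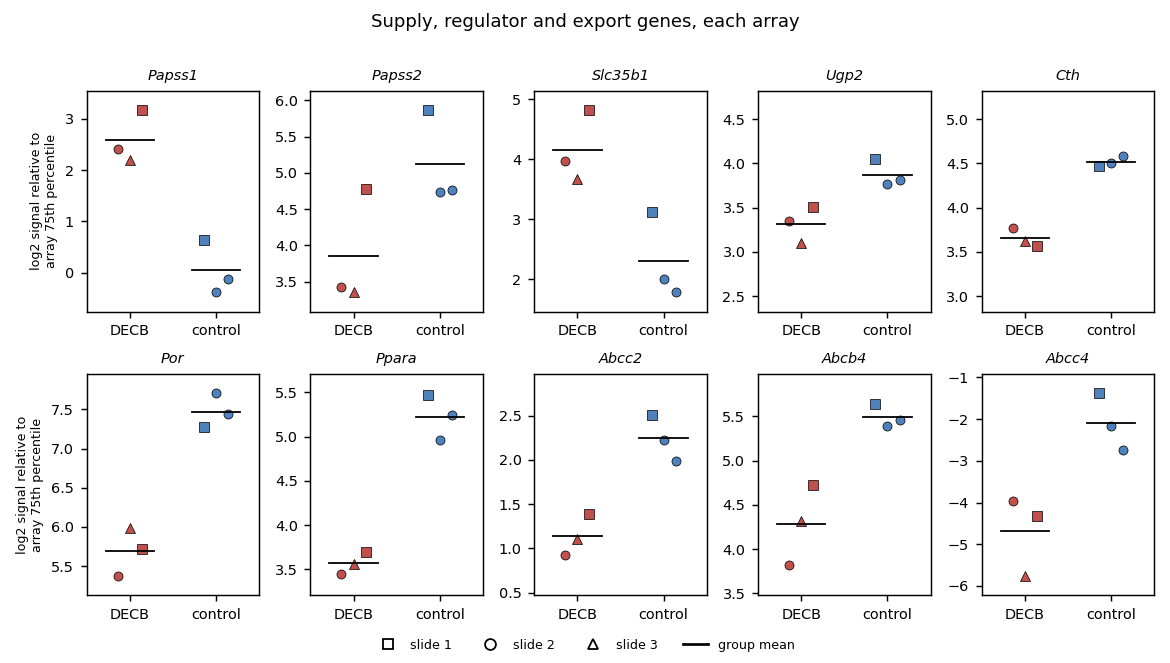
Levels of 10 genes from the lists around conjugation on each array (y axis, log2 signal against the 75th percentile of the array, scaled per panel), DECB left and control right, with symbols for slides and a line for the group mean. Papss1 and Slc35b1 are higher on every DECB array, Papss2 overlaps through DECB 6, and the other 7 are lower on every DECB array.

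Other genes are also known to be higher in female than in male mouse liver. Of 12 such genes tested, 3 were called lower, against 0.257% of all genes, 0 were called higher, and the median was -2.04. The groups did not overlap for 8 that were lower in DECB, against 9.4% of all genes, and for 1 that was higher, against 7.24%. Cux2, a transcription factor of female liver, had levels of -6.18, -5.64 and -4.35 in DECB arrays, against -0.33, -0.18 and -1.07 in control arrays. Control 3 was the lowest control here and the highest for Sult2a2. Cux2 was well above background on 0 DECB and 3 control arrays, so that it passed the filter through the controls alone. It was at least 9.63-fold lower in DECB (adjusted p = 0.026), with a normexp difference of -1.97, a 3.93-fold lower level. Hao2, a hydroxyacid oxidase, also passed the filter through the controls alone. It was at least 5.91-fold lower in DECB (adjusted p = 0.035), with a normexp difference of -1.35, a 2.54-fold lower level. These bounds hold for the processed signal as deposited. Of 13 genes known to be higher in males, 1 was called higher (Nudt7), against 0.209% of all genes, 0 were called lower, and the median was 0.76. The groups did not overlap for 6 that were higher in DECB, against 7.24% of all genes, and for 1 that was lower, Cyp2d9 (-0.78, SE 0.29), named here after its value was seen. All samples carry the label male. Medians of the lists for pericentral and periportal hepatocytes were -0.36 and -0.39, close to that of all conjugation genes, with 0 called.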

How the data were processed

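Each deposited file of a sample is the scanner output of 1 Agilent array read in Cy3, extracted with Agilent Feature Extraction 11.0.1.1 per the submitters' processing notes. The intensity used, the processed signal, was background-subtracted per the file headers, with no scaling between arrays. The log2 value table deposited by the authors did not follow the scanner values and was not used for comparisons. How it was made is not stated, and its centring and direction stay unknown.

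Levels are log2 processed signals minus the array's 75th percentile over 43020 non-control spots. Control spots (1377) and outlier-marked spots (164 to 322 per array) were left out, and no spot was saturated. Spots of a probe were averaged. Of 39429 probes, 25418 were well above background on at least 3 of 6 arrays and were kept. Symbols came from the RefSeq table of GRCm38.p6, where 27234 of 28684 probes with a RefSeq accession matched. The brightest kept probe stood for a gene. Tests used limma 3.58.1 in R 4.3.3 (lmFit, eBayes), tested on simulated data, two-sided, with Benjamini-Hochberg adjustment over 14805 genes at 0.05; 3 arrays a group limit the precision. Alternatives were normexp with offset 50 (on median signals, as the files hold no mean signal column), quantile scaling, other filters, the mean of a gene's probes, slide as a block, and arrays left out. Slide 3 held DECB 5 alone, which then has no weight in the block fit (2 residual degrees of freedom, against 4).

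The genes and lists were chosen with earlier results of these data known. Named were all called genes, those measured in 1 group only, up to 6 per subfamily by smallest unadjusted p, and of each list the called genes and up to 3 others. A few genes meeting this rule are not reported here. Promoters (RefSeq, 300 bases, 69 entries of 58 genes) were searched for motifs, and the motif GTTAAT, the counts over genes measured on all arrays and the bounds without single controls were added after the data were seen. Protein sequences were not used here.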

Additional observations from a re-analysis of the deposited data

How the results depend on the processing

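limma called 0 of the 50 conjugation genes in either direction under every setting tried except slide as a block, which called 3 lower. The Gst and Mgst median of -0.35 ranged from -0.66 to -0.28 with 1 array left out. The Ugt median of 0.19 ranged from -0.10 to 0.19 with 1 array left out and was 0.0089 within slide 1 and 0.40 within slide 2. The Sult median of -1.28 was -0.73 with normexp, -0.80 with the strict filter, -0.39 within slide 1, -1.77 within slide 2 and -1.43 to -0.60 with 1 array left out, -0.60 without control 3. The Sult1 median was -1.67 within slide 2. The median of the Sult2a genes other than Sult2a8 was -4.20 without slide 1, -0.87 within slide 1 and -4.57 within slide 2. The slide 1 median is the value of Sult2a4, which was well above background on neither slide 1 array. Of 45 conjugation genes named, 34 kept their direction in every fit across arrays and 11 did not, and 8 turned within 1 of the slides. With 1 array left out, differences ranged from -0.054 to 0.17 for Gstp2, from -0.77 to 0.0086 for Gstt1, from -0.31 to 0.019 for Mgst1, from -0.39 to 0.0023 for Sult2a8 from -2.26 to 0.079 for Sult3a1, from -0.0061 to 0.53 for Ugt2b34, from -0.022 to 0.24 for Ugt2b36, from -0.37 to 0.18 for Gstm5, from -0.46 to 0.21 for Gstm4, from -0.19 to 0.78 for Sult4a1 and from -0.39 to 0.93 for Ugt2a1. Gstp2 was also -0.00044 with normexp, and Mgst1 0.0020 with quantile scaling and 0.053 with the block, which gave 0.097 for Gstm4 and -0.046 for Ugt2a1. The cause was not tested. Over all genes, limma called 31 higher and 38 lower, 405 and 583 with the block, 0 and 0 without the filter on dim probes, and 0 and 0 without control 1, without control 3, without DECB 4 or without DECB 5. It called 0 and 2 without control 2 and with controls 2 and 3 averaged. The other called genes named (Clic5, Gm4952, Gadd45b, Cux2, Hao2 and Nudt7) were thus not called without those arrays, while the direction of the 20 other genes named did not turn. The median shift of all genes stayed within -0.073 to -0.010. No paired analysis was possible because DECB titles are numbered 4 to 6 and control titles 1 to 3, with no number in both; the slide block and the within-slide values use the 2 slides that hold both groups. The series' value table was not run as an alternative, since it did not follow the scanner values. On slide 1 the lowest signals well above background were at -2.26 in DECB 6 and -1.95 in control 1 relative to the 75th percentile, which limits what its arrays show of dim genes.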
